A study of Homo sapiens with 36 samples.

Results

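HCT-15 is an established human colon adenocarcinoma line, and its transcriptome was compared here after 24 h with 0.5 µM JQ1 and after DMSO, the solvent. The 6 HCT-15 libraries, 3 labelled JQ1 and 3 labelled DMSO, were taken from 36 libraries of 6 colon cancer lines by their cell line and treatment labels. The other 30 libraries come from HCT116, SW480, HT-29, COLO205 and COLO320, each with the same 3 and 3. Of the 26468 genes in the table, the 12302 with at least 1 RPKM (reads scaled to gene length and to library size) in at least 3 of the 6 HCT-15 libraries were tested. All HCT-15 cells were of 1 line, grown at 37 degrees, harvested in log phase and treated in triplicate. The labels do not say whether the triplicates were separate cultures, and the p-values therefore reflect no more than the scatter among these libraries, which may be technical.

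JQ1 occupies the acetyl-lysine pocket of the bromodomains of BET proteins, among them BRD2 and BRD3, and displaces them from acetylated chromatin. BET proteins help to recruit P-TEFb, the kinase CDK9 with a cyclin T, which releases paused RNA polymerase II into elongation, and HEXIM1 with 7SK RNA holds P-TEFb inactive. HCT-15 is known for loss of mismatch repair through MSH6 and for abundant ABCB1, the drug efflux pump P-glycoprotein.

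Reads in genes numbered 22.3 to 31.7 M in the 6 HCT-15 libraries, and 18.8 to 53.1 M over the 36. Replicates correlated at r = 0.998 across genes and differed by more than sampling noise, with a chi-square per gene of 1.23 to 1.87 over the pairs. Reads per unit of the authors' scaling factor were 0.878 to 0.88 in DMSO and 0.953 to 0.96 in JQ1. Scaling to total reads therefore moves the median log2 change of all tested genes to −0.11, and this shift applies to each change given below. Of 11 colon epithelial markers, 3 stayed under 1 RPKM in all 6 libraries, and the summed level was 2327 to 2350 RPKM in DMSO and 7073 to 7165 RPKM in JQ1. The 9 fibroblast markers summed to 3.65 to 4.02 RPKM in DMSO and 4.72 to 5.17 RPKM in JQ1, with COL1A2, COL3A1, DCN, LUM and PDGFRA at 0. The 10 leukocyte markers summed to 6.27 to 6.32 and 2.52 to 2.99 RPKM, of which CD14 made up most. The 5 endothelial markers summed to at most 0.0579 RPKM. In such bulk libraries, fewer cells of a kind and less RNA per cell cannot be told apart.

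JQ1 moved most expressed genes of HCT-15 by a small amount and fewer genes by a large one. Among the 12302 tested genes, 5009 rose and 4894 fell with limma at an adjusted p under 0.05, which is 40.7% and 39.8% of them, and 80.5% in all. With total reads as divisor, 3956 rose and 6115 fell. The JQ1 and DMSO libraries did not overlap in 10169 genes, or 82.7%, with JQ1 above in 41.9% and below in 40.8%. Changes are differences of log2(RPKM + 0.5), which understate the change of low genes. A gene under 1 RPKM in each library of 1 group was tested only if each library of the other group reached 1 RPKM. The filter set the direction of such genes, in the lists as elsewhere. The median size of the called changes was 0.40, and 69% of called genes changed less than 1.5-fold. At least 2-fold changes were called upward in 514 genes (4.18%) and downward in 515 (4.19%). On the log2(RPKM + 0.5) scale rises reached further than falls. There 15 genes rose at least 8-fold and 0 fell as far, and 57 rose and 36 fell at least 4-fold. By the plain ratio of mean RPKM, TNFRSF19, EPN3 and MKX fell 9.12-fold, 8.73-fold and 8.2-fold, and H2BC21 rose 20.4-fold. With so high a share called over all genes, a list is described by the count of its members that rose and fell and by its median change, to be read beside 40.7%, 39.8% and a median of 0.002 for all tested genes.

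**Figure D1:**
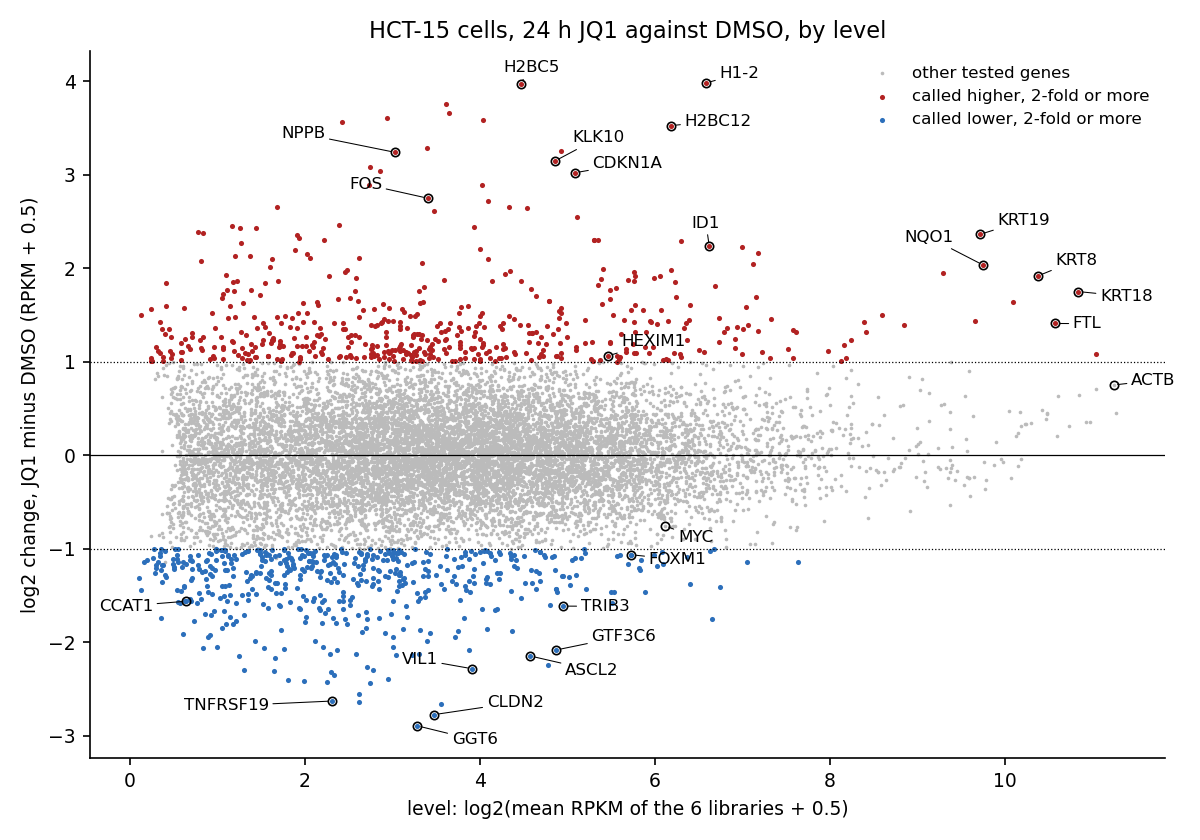
Change with JQ1 against level in HCT-15 for the 12302 tested genes. The x axis is log2 of the mean RPKM of the 6 libraries plus 0.5 and the y axis is the log2 change, JQ1 minus DMSO; red and blue points are genes called higher (514) and lower (515) by at least 2-fold, dotted lines mark 2-fold, and circled genes are named. Histone genes and CDKN1A stand at the top over the middle of the level range, and KRT19, KRT8, KRT18, NQO1 and FTL rise at the highest levels.

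The BET and elongation genes served as a readout of the drug. HEXIM1 (Entrez 10614) stood at 28.2, 28.1 and 28.3 RPKM in the DMSO libraries and 60.2, 58.7 and 59.2 in the JQ1 libraries. BRD2, itself a JQ1 target, stood at 69.8, 69.1 and 69.9 RPKM with DMSO and 132, 132 and 132 with JQ1. Both pairs of groups were far apart, with log2 changes of 1.06 ± 0.0265 (SE; adjusted p = 5.25e-24) and 0.92 ± 0.0146 (adjusted p = 2.09e-28). Of the 21 listed genes of this machinery, all tested, 10 rose and 5 fell, with a median of 0.09; with total reads as divisor 9 rose and 9 fell. ELL2, an elongation factor of the super elongation complex, rose from 2.02 ± 0.0134 to 5.96 ± 0.273 RPKM, and its scaffold AFF4 from 20.02 ± 0.254 to 32.9 ± 0.136. CDK9 rose by 0.41, whereas BRD3 changed by −0.07 and did not pass. HEXIM2, a second inhibitor of P-TEFb, fell from 6.27 ± 0.0954 to 2.799 ± 0.571 RPKM. SERPINI1, a protease inhibitor often used as a readout of BET inhibition, had 13 reads over the DMSO libraries and 414 over the JQ1 libraries. In RPKM it stood at 0.1302, 0 and 0.101 with DMSO and 2.52, 2.31 and 2.603 with JQ1 (log2 change 2.37). SERPINI1 was tested through the JQ1 libraries, so the filter set its direction.

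Histone genes made up 9 of the 15 highest rises among genes with a symbol. In values given as 3 against 3, the DMSO libraries come first. H1-2, a linker histone, stood at 10.5, 12.2 and 10.3 RPKM with DMSO and 184, 176 and 182 with JQ1. H2BC5 stood at 1.98, 2.01 and 2.47 against 41.3, 41.8 and 39.9 RPKM, and H2BC12 at 10.4, 12.1 and 11.04 against 135, 135 and 132. No DMSO library came near a JQ1 library in these genes, and the log2 changes were 3.98 ± 0.074, 3.97 ± 0.11 and 3.52 ± 0.0552 (adjusted p = 6.42e-27, 3.9e-23 and 1.56e-28). The other 6 histone genes among the 15 were H2BC4 (3.76), H2BC11 (3.66), H2BC21 (3.60), H2AC6 (3.58), H3C10 (3.28) and H4C8 (3.08). Of 56 listed histone genes, 20 were tested and rose. The filter favours such a result, because just 6 of the 20 reached 1 RPKM in all 3 DMSO libraries, against 20 in all 3 JQ1 libraries. Among the 36 listed genes that were not tested, the JQ1 libraries were all above the DMSO libraries in 10 and all below in 0, 4 were at 0 in the 6 libraries, and the highest single value was 1.25 RPKM. Summed over the 56 genes, the level was 42.5, 52.9 and 41.4 RPKM with DMSO and 521.8, 510.4 and 514.7 RPKM with JQ1. Replication-dependent histone transcripts normally end in a stem-loop without a poly(A) tail, and members of the family are near-identical, so reads may be split between copies and the values are uncertain in that respect.

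Promoter windows of these 3 genes are shown because each holds CCAAT and H2BC5 and H2BC12 also TATAAA, elements classical for histone genes. The windows run from 250 bases before to 30 bases after the start in RefSeq (GRCh38.p14), 5′ to 3′ on the gene's strand. Capitals mark CCAAT and TATAAA on either strand, and a match is a description of letters, not a bound site. H1-2 lies at chr6:26056441-26056720 on the minus strand, H2BC5 at chr6:26157871-26158150 on the plus strand and H2BC12 at chr6:27146829-27147108 on the minus strand.
H1-2: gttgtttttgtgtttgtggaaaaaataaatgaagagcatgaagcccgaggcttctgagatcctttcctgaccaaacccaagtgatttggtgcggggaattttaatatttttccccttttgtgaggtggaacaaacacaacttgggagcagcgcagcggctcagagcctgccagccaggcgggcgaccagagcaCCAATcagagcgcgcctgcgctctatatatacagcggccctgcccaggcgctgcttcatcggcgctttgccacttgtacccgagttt
H2BC5: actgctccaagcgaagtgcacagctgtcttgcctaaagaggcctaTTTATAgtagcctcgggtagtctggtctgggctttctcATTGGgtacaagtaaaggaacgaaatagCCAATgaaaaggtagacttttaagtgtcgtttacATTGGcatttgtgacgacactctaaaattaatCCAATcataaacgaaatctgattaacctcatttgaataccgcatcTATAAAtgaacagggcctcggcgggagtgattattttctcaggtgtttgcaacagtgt
H2BC12: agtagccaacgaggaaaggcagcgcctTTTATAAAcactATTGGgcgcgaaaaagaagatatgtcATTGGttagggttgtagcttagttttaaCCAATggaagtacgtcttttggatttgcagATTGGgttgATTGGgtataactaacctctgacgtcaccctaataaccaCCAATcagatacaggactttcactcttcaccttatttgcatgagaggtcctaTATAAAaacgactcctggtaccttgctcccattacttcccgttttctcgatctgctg
H1-2 holds 1 CCAAT, 57 bases before the start, and 0 TATAAA. H2BC5 holds 4 CCAAT and 2 TATAAA, the latter at −205 and −28. H2BC12 holds 6 CCAAT and 3 TATAAA, of which the matches at −223 and −221 overlap and the third is at −27. Over the whole 300-base windows, CCAAT was found in 18 of the 19 tested histone genes with a window (94.7%) and in 37.4% of the 9338 tested genes that have one. TATAAA was found in 13 of the 19 (68.4%) and in 4.87% of all.

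Most listed genes that restrain the cell cycle rose, and most genes of replication fell. CDKN1A, the CDK inhibitor p21, stood at 7.12, 7.26 and 6.54 RPKM with DMSO and 59.6, 59.5 and 61.03 with JQ1, a log2 change of 3.02 ± 0.0494 (adjusted p = 3.76e-28). The groups did not overlap, and CDKN1A was among the 15 highest rises. Of 16 listed CDK inhibitors and antiproliferative genes, 14 were tested, 9 rose and 4 fell, with a median of 0.41. Of the 14, just 12 reached 1 RPKM in all 3 DMSO libraries, against 14 in all 3 JQ1 libraries. CDKN2B and CDKN1C were under 1 RPKM in each DMSO library and were tested through the JQ1 libraries. The filter thus set the direction of both. CDKN2B, p15, rose from 0.472 ± 0.0665 to 2.71 ± 0.019 RPKM, and CDKN2D, p19, from 5.72 ± 0.591 to 12.6 ± 0.349. BTG1, an antiproliferative factor, rose from 2.99 ± 0.13 to 7.57 ± 0.112 RPKM, whereas CDKN1B, p27, went from 26.2 ± 0.377 to 26.8 ± 0.197 and did not pass (log2 change 0.03).

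Of 32 listed G1/S and replication genes, 26 fell and 5 rose, with a median of −0.48. E2F2, an activating E2F factor, stood at 7.097, 6.796 and 6.88 RPKM with DMSO and 1.33, 1.305 and 1.23 with JQ1, a log2 change of −2.05. MCM5 of the replicative helicase stood at 77.8, 79.4 and 80.9 against 32.3, 34.6 and 33.9 RPKM (−1.23). In both genes each JQ1 library lay under each DMSO library. The licensing factor CDT1 fell by 0.82 and the GINS subunits GINS3 and GINS1 fell by 0.88 and 0.83. The 5 that rose were RRM2, the small subunit of ribonucleotide reductase (192 ± 1.62 to 316 ± 5.21 RPKM), the cyclins CCND1 (193 ± 3.68 to 303 ± 2.4) and CCND3 (23.3 ± 0.263 to 36.6 ± 1.11), TK1 (103 ± 0.507 to 130.3 ± 2.14) and POLE (13.9 ± 0.266 to 16.6 ± 0.338). CCNE1 went from 17.4 ± 0.855 to 16.5 ± 0.215 RPKM and did not pass.

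Of 26 listed mitosis genes, 23 fell and 3 rose, with a median of −0.27. FOXM1, the factor that drives G2/M genes, stood at 71.7, 71.5 and 70.7 RPKM with DMSO and 32.5, 33.9 and 35.2 with JQ1, a log2 change of −1.06. Its groups did not overlap. CCNA2 fell from 87.6 ± 0.218 to 48.4 ± 0.566 RPKM, AURKA from 42.5 ± 1.3 to 23.6 ± 0.718 and BUB1B from 36.7 ± 0.29 to 22.2 ± 0.247. Falls were small for MKI67 (−0.19) and TOP2A (−0.18). CDC20, CDC25B and BUB1 rose by 0.51, 0.56 and 0.13; scaling to total reads ended the call of BUB1 (adjusted p = 0.747).

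MYC stood at 85.2, 87.4 and 86.7 RPKM with DMSO and 50.3, 49.3 and 53.9 with JQ1, a log2 change of −0.75 ± 0.0237 (adjusted p = 1.14e-21), and its groups did not overlap. CCAT1, a long noncoding RNA from the region upstream of MYC, stood at 1.88, 1.64 and 1.98 against 0.322, 0.263 and 0.283 RPKM. It had 408 against 64 reads over 3 libraries each. CCAT1 was tested through the DMSO libraries, so the filter set its direction. Of 13 listed MYC network genes, 12 were tested, 4 rose and 5 fell, with a median of −0.07. MXD4, a MAX partner that opposes MYC, had the highest rise of them, from 4.55 ± 0.333 to 13.6 ± 0.445 RPKM. MYCL rose from 1.57 ± 0.164 to 3.11 ± 0.096 RPKM and MXI1 fell from 8.32 ± 0.518 to 6.68 ± 0.221, whereas MAX changed by −0.08 and did not pass.

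Of 30 listed MYC targets, 29 were tested, 23 fell and 4 rose, with a median of −0.34; under quantile scaling 26 fell and 2 rose. TFAP4, a direct MYC target and transcription factor, stood at 20.6, 20.4 and 21.01 RPKM with DMSO and 5.63, 4.99 and 5.17 with JQ1, a log2 change of −1.88. The folate carrier SLC19A1 fell from 23.5 ± 0.966 to 9.21 ± 0.196 RPKM, and CDK4 from 179 ± 4.82 to 92.1 ± 1.65. NCL, nucleolin, was among the 6 largest falls in RPKM, from 825 ± 13.8 to 661 ± 7.37. Against the majority, the fatty acid synthase FASN rose from 94.4 ± 6.63 to 156 ± 3.7 RPKM and the polyamine enzyme ODC1 from 400.1 ± 6.8 to 648 ± 1.2. EIF4A1 (0.29) and LDHA (0.07) rose as well; under quantile scaling EIF4A1 did not pass (adjusted p = 0.174) and LDHA changed sign, to −0.15.

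Ribosome biogenesis genes mostly fell. Of 35, all tested, 30 fell, 1 rose and 4 did not pass, with a median of −0.38. FBL, the fibrillarin methyltransferase of the nucleolus, stood at 249.5, 247 and 250.1 RPKM with DMSO and 141, 148 and 149 with JQ1. LYAR stood at 71.6, 68.2 and 68.2 against 35.2, 36.5 and 35.9 RPKM, and GAR1 of the H/ACA particles at 34.2, 34.5 and 32.6 against 18.1, 18.1 and 16.6. The groups did not overlap in these 3 genes, and the log2 changes were −0.77, −0.94 and −0.92. WDR43 and MRTO4 fell by 0.58 and 0.57. RRP12 rose, by 0.32. The promoters of FBL, WDR43 and MRTO4 are shown because they hold CACGTG, the E-box that MYC with MAX can bind. They are the 3 genes with the largest falls among list members whose match lies within the window from 250 bases before to 30 bases after the start. FBL lies at chr19:39846350-39846629 on the minus strand, WDR43 at chr2:28894417-28894696 and MRTO4 at chr1:19251555-19251834, both on the plus strand, in RefSeq GRCh38.p14. Capitals mark CACGTG, which reads the same on both strands.
FBL: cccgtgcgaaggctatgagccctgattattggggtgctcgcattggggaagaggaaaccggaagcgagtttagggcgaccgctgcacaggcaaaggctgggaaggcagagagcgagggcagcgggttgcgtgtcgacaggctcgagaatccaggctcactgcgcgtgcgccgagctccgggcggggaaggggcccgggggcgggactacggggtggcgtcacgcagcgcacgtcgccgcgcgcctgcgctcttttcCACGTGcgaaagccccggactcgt
WDR43: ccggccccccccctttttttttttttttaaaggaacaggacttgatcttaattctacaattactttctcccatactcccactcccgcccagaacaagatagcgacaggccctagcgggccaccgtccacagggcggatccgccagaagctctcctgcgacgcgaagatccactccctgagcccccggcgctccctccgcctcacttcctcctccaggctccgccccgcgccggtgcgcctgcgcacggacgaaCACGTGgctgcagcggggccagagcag
MRTO4: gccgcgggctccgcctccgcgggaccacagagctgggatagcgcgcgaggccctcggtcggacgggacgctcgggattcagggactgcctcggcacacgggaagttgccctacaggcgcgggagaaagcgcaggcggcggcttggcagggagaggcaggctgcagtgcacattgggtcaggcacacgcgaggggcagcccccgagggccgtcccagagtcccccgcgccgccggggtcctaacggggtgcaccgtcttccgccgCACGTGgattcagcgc
The match begins 6 bases after the start in FBL, 3 after in WDR43 and 14 after in MRTO4. Over whole 300-base windows CACGTG was found in 12 of the 28 ribosome biogenesis genes with a window (42.9%), in 9 of 26 MYC targets (34.6%), in 7 of 22 lysosome and autophagy genes (31.8%) and in 10.5% of all tested genes. Among genes that changed at least 2-fold it was found in 8.64% of those higher and 10.3% of those lower. Members of the lysosome list mostly rose, as given further on, so a match was found in lists of either direction.

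RNA polymerase III genes had 1 deep fall. GTF3C6, a subunit of the transcription factor TFIIIC, stood at 46.3, 48.3 and 46.4 RPKM with DMSO and 10.6, 11.3 and 10.2 with JQ1, a log2 change of −2.08 ± 0.0771 (adjusted p = 5.46e-20). The fall of GTF3C6 was −2.47 to −1.99 in the other 5 lines, and HCT-15 was not distinguishable from their mean (difference 0.15, adjusted p = 0.131; with voom on the recovered reads 0.20, adjusted p = 0.0163). Of 21 such genes, all tested, 11 fell and 5 rose, with a median of −0.08; with total reads as divisor 15 fell and 3 rose. The paralogous subunits moved apart: POLR3G fell from 12.2 ± 0.293 to 6.74 ± 0.154 RPKM and POLR3GL rose from 8.68 ± 0.561 to 17 ± 1.26. Of 22 listed ribosomal protein genes, 13 fell and 4 rose, with a median of −0.13; under quantile scaling 18 fell and 1 rose. RPS19 fell from 618 ± 6.5 to 488 ± 5.58 RPKM. RPL8 (0.21) and RPLP0 (0.18) rose, but changed sign under quantile scaling, to −0.44 and −0.07, and the gene copies of this family make such small values uncertain.

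Homologous recombination and Fanconi anemia genes mostly fell, 19 of 23, with 3 higher and a median of −0.36. FANCD2 stood at 18.98, 18.4 and 19.1 RPKM with DMSO and 8.03, 7.52 and 8.54 with JQ1, a log2 change of −1.18. FANCG fell from 26.7 ± 0.16 to 13.8 ± 0.462 RPKM and BRCA1 fell by 0.45. The 3 higher genes were FANCM, ATR and BRCA2, with changes of 0.17, 0.15 and 0.10 that were lost on scaling to total reads. Of 12 mismatch repair and polymerase genes, 8 fell and 2 rose, with a median of −0.16. POLE2 fell from 11.4 ± 0.409 to 5.22 ± 0.269 RPKM, whereas MSH3 rose from 11.9 ± 0.227 to 15.6 ± 0.311. MSH6 was low in both groups and fell, at 4.68, 4.98 and 4.61 RPKM with DMSO and 3.46, 3.81 and 3.61 with JQ1.

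The simple epithelial keratins KRT8, KRT18 and KRT19 rose at very high levels. KRT19 stood at 274, 271 and 278 RPKM with DMSO and 1403, 1403 and 1426 with JQ1. KRT8 stood at 557, 559 and 560 against 2115, 2094 and 2122 RPKM, and KRT18 at 853, 831 and 837 against 2846, 2804 and 2833. The groups did not overlap, the log2 changes were 2.36, 1.92 and 1.75, and these 3 with FTL, TMSB10 and ACTB were the 6 largest rises in RPKM. TMSB10, a thymosin that binds actin, rose from 1354 ± 33.3 to 2862 ± 11.8 RPKM and ACTB from 1810.0 ± 8.78 to 3046 ± 39.7. The basal keratin KRT15 went from 0.905, 0.692 and 0.6199 to 5.402, 6.01 and 5.99 RPKM. Of 12 listed keratins, 6 were tested, 4 rose and 2 fell, the latter being KRT80 (−1.12) and KRT7 (−1.10). Of the 6, 5 reached 1 RPKM in all 3 DMSO libraries and 5 in all 3 JQ1 libraries. KRT15 was under 1 RPKM in each DMSO library and was tested through the JQ1 libraries, so the filter set its direction. Keratin and actin genes have many pseudogene copies, and the rule by which reads were shared among them is not known here.

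Junction genes shifted toward higher levels, with 12 of 19 tested members higher, 3 lower and a median of 0.21; with total reads as divisor, 8 were higher and 7 lower. CDH1, E-cadherin, stood at 125, 126 and 126 RPKM with DMSO and 245, 243 and 248 with JQ1, a log2 change of 0.96. JUP, plakoglobin, rose from 64.5 ± 1.7 to 118 ± 2.45 RPKM and DSP, desmoplakin, from 29.1 ± 1.44 to 46.1 ± 1.22. CLDN2, the pore-forming claudin, went the other way, with 20.3, 19 and 17.6 RPKM in DMSO and 2.33, 2.33 and 2.35 in JQ1 (−2.77). EPCAM went from 469 ± 6.77 to 459 ± 2.09 RPKM and did not pass. Of 13 mesenchymal genes just 2 passed the filter, ITGA5 (−0.17) and SNAI1 (0.04, not called); the groups of ITGA5 overlapped, and its call was lost under quantile scaling (adjusted p = 0.108), at a pseudocount of 0.1 (0.0626), with HCT-15 alone (0.142) and without DMSO replicate 1 or 2 or JQ1 replicate 1 or 3 (0.0504 to 0.226).

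Intestinal differentiation genes were mostly off in both groups: 8 of 29 were tested, and 4 rose and 4 fell. VIL1, the brush border protein villin, stood at 23.6, 23.9 and 25.6 RPKM with DMSO and 4.96, 4.24 and 4.65 with JQ1, a log2 change of −2.28. CDH17, liver-intestine cadherin, fell from 3.301 ± 0.158 to 0.8003 ± 0.121 RPKM and MUC13 from 1.82 ± 0.0418 to 0.422 ± 0.0616. The 8 tested genes all reached 1 RPKM in all 3 DMSO libraries, against 6 in all 3 JQ1 libraries. CDH17 and MUC13 were tested through the DMSO libraries, so the filter set the direction of both. CDX2, the intestinal master factor, rose from 41.3 ± 1.05 to 67.2 ± 1.4 RPKM, KLF4 from 5.05 ± 0.613 to 8.43 ± 0.448 and KLF5 from 57.2 ± 0.58 to 85.8 ± 2.33. The markers of the line as colon epithelium thus did not move together: KRT8, KRT18, KRT19 and CDX2 rose, and villin fell.

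Most AP-1 and MAPK output genes rose. FOS stood at 2.18, 2.47 and 2.08 RPKM with DMSO and 17.7, 17.9 and 18.1 with JQ1, a log2 change of 2.75 ± 0.0765 (adjusted p = 6.8e-23). Its groups did not overlap. ATF3 rose from 2.999 ± 0.124 to 9.802 ± 0.103 RPKM, MAFF from 5.73 ± 0.398 to 11.98 ± 0.355, and JUND, JUNB and JUN rose by 0.99, 0.80 and 0.72. BATF fell from 2.96 ± 0.23 to 0.673 ± 0.21 RPKM. In all, 8 of 10 tested AP-1 genes of 12 listed rose and 1 fell, with a median of 0.76, beside 0.25 for the mean change of the same genes in the other 5 lines; the difference from the other lines was called upward in 7 and downward in 2 of the 10. Over all tested genes it was called upward in 33.7% and downward in 28.4% (with total reads as divisor, in 2744 and 5334 genes). FOSL1 stood at 12.98, 13.6 and 13.7 against 15, 16.02 and 14.4 RPKM, a log2 change of 0.17 (adjusted p = 0.00715) that was lost at a pseudocount of 0.1, on scaling to total reads and without JQ1 replicate 2 (adjusted p = 0.0679, 0.434 and 0.0578).

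DUSP6, a phosphatase that ERK signalling induces and that restrains ERK, stood at 4.96, 4.803 and 4.31 RPKM with DMSO and 18.5, 19.04 and 17.9 with JQ1. DUSP5 stood at 4.48, 4.53 and 3.397 against 15.6, 15.7 and 15.2 RPKM, and the immediate early gene IER3 at 22.8, 23.5 and 20.6 against 85.4, 88.4 and 83.5. Each JQ1 library was above each DMSO library in these 3 genes, with log2 changes of 1.87, 1.80 and 1.92. EPHA2 rose from 33.1 ± 0.44 to 89.97 ± 0.585 RPKM and EGR1 from 16.8 ± 1.11 to 45.5 ± 0.588. Within the list 11 of 17 tested genes of 20 rose and 5 fell, with a median of 0.65, beside −0.24 for the mean change of the same genes in the other lines. The difference from the other lines was called upward in 15 of these 17, beside 33.7% of all tested genes. ETV4 and LIF fell by 1.14 and 1.08. Of 12 EGFR ligands and ERBB receptors, 7 were tested, 4 rose and 3 fell; HBEGF rose from 1.59 ± 0.0499 to 5.52 ± 0.369 RPKM and EREG fell from 26.9 ± 0.274 to 8.22 ± 0.208.

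**Figure D2:**
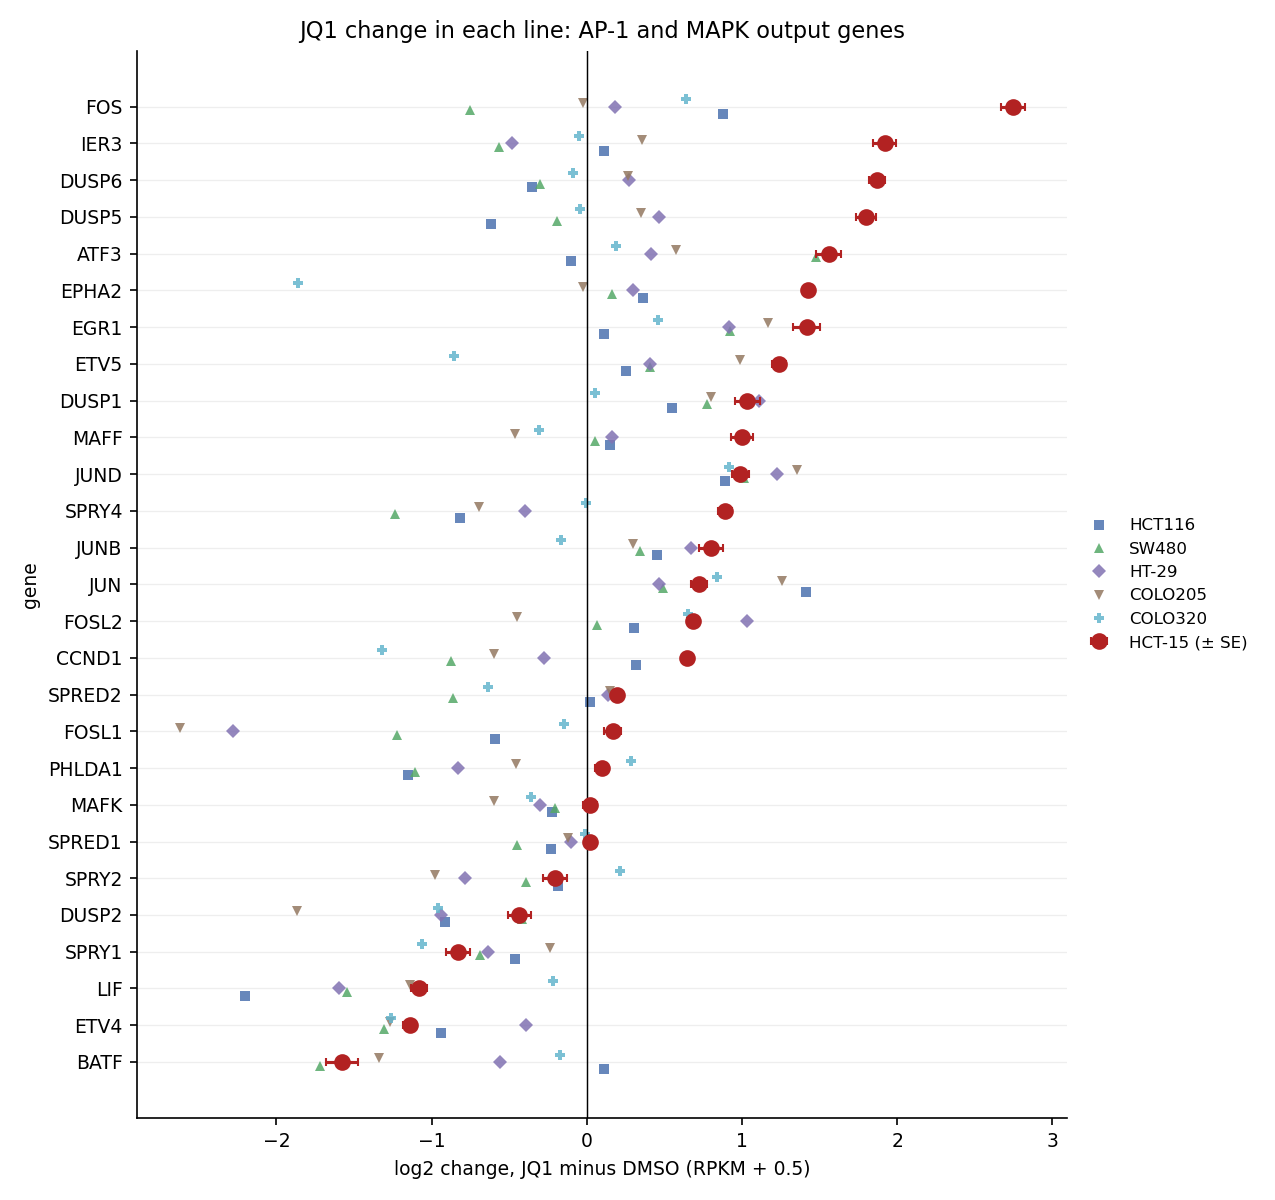
Log2 change with JQ1 (x axis) of each tested AP-1 and MAPK output gene (rows) in the 6 lines. Red points are HCT-15 with SE and the other symbols are the 5 other lines. FOS, IER3, DUSP6, DUSP5, EPHA2 and SPRY4 lie to the right of all 5 other lines, and JUN, JUND and DUSP1 lie within their range.

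Most tested NRF2 targets, the genes of the antioxidant response, rose. NQO1, a quinone reductase, stood at 343, 339 and 332 RPKM with DMSO and 1384, 1390.0 and 1384 with JQ1. OSGIN1 stood at 1.06, 1.1 and 1.16 against 8.06, 8.43 and 8.57 RPKM. The groups did not overlap in either gene, with log2 changes of 2.03 and 2.46. The ferritin chains FTL and FTH1 rose from 838 ± 14.6 to 2224 ± 10.7 and from 255 ± 1.88 to 669 ± 3.06 RPKM, and TXNRD1 from 190 ± 2.67 to 392 ± 5.94. Of 20 listed genes 15 were tested, 13 rose and 0 fell (with quantile scaling 1 and with total reads 2 fell), with a median of 0.60, beside 0.29 in the other lines. TKT and UGDH did not pass, with changes of −0.02 and −0.02. TGACNNNGC, the core of the antioxidant response element, was found on either strand in 4 of the 12 promoter windows of the list (33.3%) and in 15.4% of all. The share was similar in lysosome and autophagy genes (8 of 22, 36.4%) and in MYC targets (8 of 26, 30.8%), which mostly fell. It was thus not particular to the NRF2 list.

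Of 9 metallothioneins 6 were tested, 3 rose and 3 fell. MT2A stood at 256, 264 and 252 RPKM with DMSO and 989, 1007 and 987 with JQ1 (1.95), and MT1A fell from 15.7 ± 1.23 to 6.63 ± 0.675 RPKM. These genes are near-identical, so the split between them is uncertain. Lysosome and autophagy genes shifted upward, with 19 of 28 tested members of 30 higher, 6 lower and a median of 0.31. With total reads as divisor 18 were higher and 7 lower, with a median of 0.20. The listed housekeeping genes had a median of 0.28, so a shift of this size was not particular to the lysosome list. NEU1, lysosomal sialidase, stood at 11.3, 11.7 and 10.8 against 36.6, 37.8 and 39.05 RPKM (1.70). SQSTM1, the autophagy receptor p62, rose from 68.05 ± 0.808 to 177 ± 1.17 RPKM and MAP1LC3B from 17.8 ± 0.91 to 41.6 ± 0.253.

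Of 26 glycolysis and hypoxia genes 25 were tested, 14 rose and 8 fell, with a median of 0.21. Under quantile scaling 12 rose and 10 fell, with a median of 0.02, and with total reads as divisor 13 rose and 12 fell (median 0.09). SLC2A1, the glucose transporter GLUT1, rose from 63.2 ± 1.19 to 158 ± 0.834 RPKM, and PKM, pyruvate kinase, from 445 ± 1.83 to 891 ± 3.19. The hypoxia-induced carbonic anhydrase CA9 went the other way, with 9.75, 10.2 and 10.2 RPKM in DMSO and 1.16, 1.102 and 1.35 in JQ1 (−2.63). NDRG1, another hypoxia-induced gene, rose from 7.34 ± 0.211 to 19.2 ± 0.532 RPKM and PDK1 fell from 6.43 ± 0.163 to 3.85 ± 0.0807. GAPDH rose by 0.63, and by 0.02 (adjusted p = 0.398) under quantile scaling.

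Cholesterol genes moved little as a list, with 10 of 23 higher, 7 lower and a median of 0.03 (8 higher and 11 lower with total reads as divisor). INSIG1, the retention factor of SREBP, rose from 63.2 ± 1.58 to 164 ± 4.88 RPKM and the isomerase IDI1 from 74.6 ± 0.799 to 166 ± 1.82. The difference from the other lines was called upward in 18 of the 23, and the median change of the same genes there was −0.21. Over all tested genes it was called upward in 33.7%, and the split depended on scaling. With total reads as divisor, 2744 of all tested genes differed upward and 5334 downward. ER chaperone and unfolded protein response genes also differed upward, in 15 of 18.

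Of 23 ATF4 and amino acid response genes 21 were tested, 7 rose and 10 fell, with a median near 0. ASNS, asparagine synthetase, stood at 66.9, 68.02 and 65.7 RPKM with DMSO and 226, 214 and 210.5 with JQ1 (1.69), whereas TRIB3 stood at 45.7, 47.1 and 45.8 against 15.01, 15.2 and 14.1 (−1.61). ATF4 itself changed by −0.08. Thus targets of the same factor went both ways by more than their replicate spread. Of 18 ER chaperone and unfolded protein response genes 9 rose and 7 fell, with a median of 0.07; under quantile scaling 7 rose and 10 fell. HSPA5, the chaperone BiP, rose from 220.4 ± 1.47 to 260 ± 3.14 RPKM and XBP1 fell from 80.6 ± 0.321 to 53.1 ± 0.811. Of 14 heat shock genes 8 fell and 5 rose, with a median of −0.29; under quantile scaling, and also with total reads as divisor, 9 fell and 2 rose. The mitochondrial chaperonin pair HSPE1 and HSPD1 fell by 1.00 and 0.80, and HSP90AB1 was among the 6 largest falls in RPKM (989 ± 12.2 to 771 ± 3.22). DNAJB1 and HSP90AA1 rose by 0.63 and 0.47.

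Interferon-stimulated genes divided, with 10 of 18 tested members of 29 lower, 7 higher and a median of −0.46. IFITM1, an antiviral membrane protein, stood at 8.67, 9.91 and 9.17 RPKM with DMSO and 1.51, 1.91 and 1.805 with JQ1 (−2.12). IFITM2 fell from 154 ± 3.11 to 45.5 ± 1.71 RPKM, IFITM3 from 273 ± 4.27 to 124 ± 3.57 and MX1 from 4.42 ± 0.146 to 1.39 ± 0.0957. The factor IRF7 rose, from 8.97, 9.51 and 8.83 to 34.4, 34.2 and 34.6 RPKM (1.86), and IFI6, STAT2 and ISG15 rose by 1.01, 0.71 and 0.65. Of 17 MHC class I genes 6 rose and 8 fell, with a median of −0.05. The parts of the presentation route moved apart. The heavy chains HLA-B, HLA-C and HLA-E rose by 0.59, 0.68 and 0.86, and B2M, their light chain, by 0.60. PSMB8, an immunoproteasome subunit, stood at 14.6, 14.5 and 15.02 RPKM with DMSO and 2.85, 2.93 and 3.13 with JQ1 (−2.13). ERAP2, a peptide-trimming protease, fell from 6.58 ± 0.0734 to 1.55 ± 0.151 RPKM, and TAP2 and PSMB9 fell by 0.66 and 0.51. Of 20 NF-kB targets and chemokines 10 were tested, 4 rose and 5 fell, with a median of −0.10. CXCL5 fell from 1.69 ± 0.17 to 0.238 ± 0.0499 RPKM and IL32 from 48.2 ± 0.504 to 19.5 ± 0.178, SOD2 rose from 44.1 ± 0.384 to 69.6 ± 0.347, and NFKBIA, with 27.5 ± 0.562 to 27.5 ± 0.734, did not pass.

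Of 9 anti-apoptotic genes 8 were tested, and 4 rose and 4 fell; under quantile scaling, and also with total reads as divisor, 2 rose and 4 fell. MCL1 stood at 72.9, 70.96 and 69.8 RPKM with DMSO and 171, 170 and 167 with JQ1 (1.24), and BCL2 at 1.72, 1.82 and 1.84 against 0.426, 0.479 and 0.547 (−1.22). BCL2L1, the gene of BCL-XL, rose from 70.9 ± 0.848 to 76.9 ± 2.05 RPKM and CFLAR fell from 4.297 ± 0.14 to 2.19 ± 0.0221. Of 20 pro-apoptotic genes 17 were tested, 8 rose and 6 fell, with a median of 0.04 (7 and 8 with total reads as divisor). BNIP3L rose from 16.3 ± 0.773 to 42.3 ± 0.54 RPKM and FAS fell from 10.1 ± 0.291 to 5.07 ± 0.356.

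Of 23 Wnt targets and stem cell genes 17 were tested, 8 fell and 5 rose, with a median of −0.09. TNFRSF19, a receptor known as TROY, stood at 7.99, 7.95 and 8.203 RPKM with DMSO and 0.888, 0.895 and 0.864 with JQ1 (−2.63). ASCL2, the factor of intestinal stem cells, stood at 37.8, 39.1 and 38.1 against 7.84, 8.35 and 8.66 RPKM (−2.15). NOTUM, an extracellular Wnt inhibitor, fell from 5.34 ± 0.0559 to 1.56 ± 0.178 RPKM. AXIN2, a common Wnt readout, went the other way, from 58.4, 58.4 and 58.4 to 93.96, 90.7 and 93.1 RPKM (0.66), and EPHB3 rose from 2.104 ± 0.111 to 5.51 ± 0.0977. No common direction was seen in these genes.

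Of 19 TGF-beta, BMP and ID genes 14 were tested, 10 rose and 3 fell, with a median of 0.29. ID1, an inhibitor of basic helix-loop-helix factors, stood at 33.4, 33.6 and 35.3 RPKM with DMSO and 163, 158 and 166 with JQ1 (2.23). ID3 rose from 21.8 ± 0.367 to 80.99 ± 2.79 RPKM, ID2 from 63.7 ± 1.28 to 148 ± 3.7 and TGFB1 from 22.9 ± 0.459 to 84.7 ± 0.293. BMP4, a BMP ligand, fell from 183 ± 0.909 to 104 ± 1.48 RPKM. Of 14 Notch genes 11 were tested, 7 rose and 3 fell, with a median of 0.32. Of the 11, 9 reached 1 RPKM in all 3 DMSO libraries and 10 in all 3 JQ1 libraries. DLL4 was under 1 RPKM in each DMSO library and was tested through the JQ1 libraries, so the filter set its direction. The ligand DLL4 rose from 0.812 ± 0.11 to 3.78 ± 0.0281 RPKM and the effector HES1 from 4.51 ± 0.465 to 10.4 ± 0.891. HES1 had changes of −0.75 to −0.05 in the 5 other lines.

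Of 19 ABC transporters 12 were tested, 10 rose and 1 fell, with a median of 0.41. ABCB1 stood at 64.9, 65.01 and 66.4 RPKM with DMSO and 80.6, 81.5 and 80.3 with JQ1, a log2 change of 0.30 (adjusted p = 6.48e-06). ABCA7 rose from 3.43 ± 0.1 to 15.8 ± 0.686 RPKM, ABCC10 from 4.33 ± 0.121 to 13.1 ± 0.121 and ABCC3 from 2.96 ± 0.0486 to 7.25 ± 0.299. Of 23 histone deacetylases and chromatin readers 22 were tested, 7 rose and 10 fell, with a median of −0.01. The acetyltransferase KAT2A fell from 46.7 ± 0.853 to 17.5 ± 0.0893 RPKM, the reader ZMYND8 from 9.68 ± 0.083 to 4.398 ± 0.167, and SIRT1 rose from 15.8 ± 0.296 to 30.5 ± 0.297. Of 14 housekeeping genes 10 rose and 3 fell, with a median of 0.28 (0.12 under quantile scaling), so they offered no fixed reference.

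**Figure D3:**
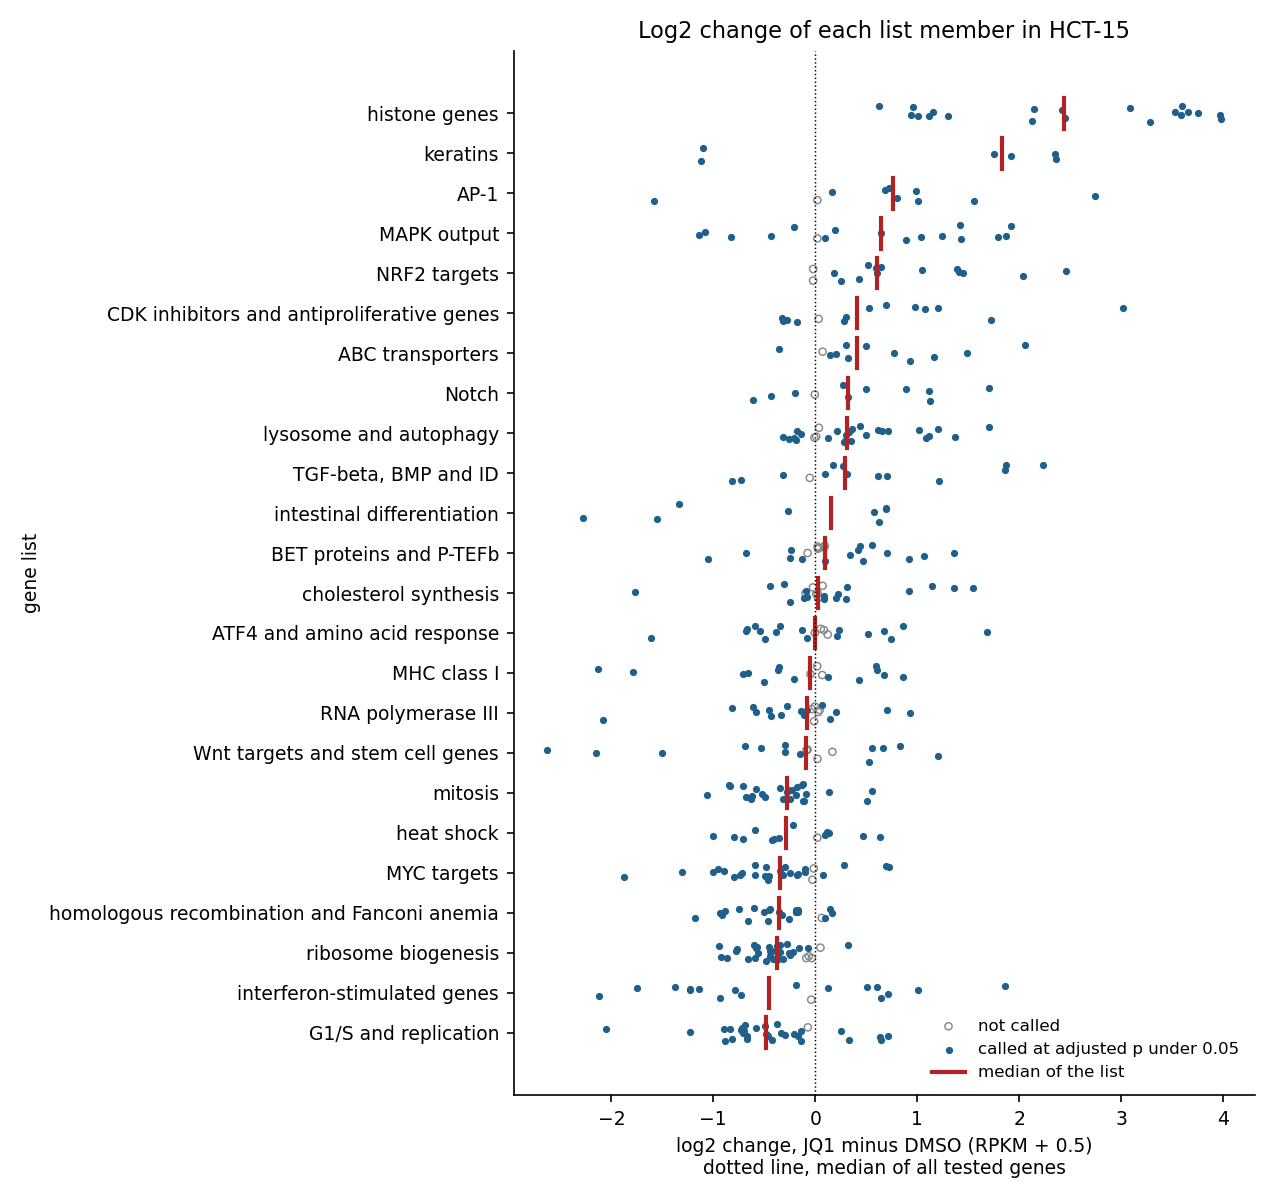
Log2 change with JQ1 in HCT-15 (x axis) of each tested member of 24 gene lists (rows, ordered by median). Filled points were called, open points were not, red bars are list medians and the dotted line is the median of all tested genes, 0.002. Histone genes and keratins are at the top, and G1/S and replication genes (median −0.48) at the bottom.

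The genes with the largest changes also lay outside the lists. KLK10, a secreted kallikrein protease, stood at 5.203, 5.28 and 5.69 RPKM with DMSO and 52.02, 51.1 and 51.5 with JQ1 (3.14). CLIC3, a chloride intracellular channel protein, stood at 5.05, 5.79 and 5.03 against 56.03, 52.1 and 55.3 RPKM (3.25), and NPPB, the precursor of a natriuretic peptide, at 1.27, 1.32 and 0.673 against 14.2, 13.1 and 15.4 (3.24). EFR3B and LINC00513 were also among the 15 highest rises, at 3.04 and 2.89; 1 gene without a symbol lay in the same range, at 3.56. The groups did not overlap in any of the 15, since this was part of the rule that chose them.

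GGT6, of the gamma-glutamyltransferase family, had the deepest fall in log2 change (−2.89 ± 0.0589, adjusted p = 5.34e-26). It stood at 16.1, 16.3 and 17.4 RPKM with DMSO and 1.94, 1.88 and 1.603 with JQ1. MACC1, a regulator of the MET receptor first linked to colon cancer metastasis, stood at 7.88, 7.97 and 7.901 against 1.15, 1.17 and 1.13 RPKM (−2.35). ACSL5, a long-chain acyl-CoA synthetase, fell from 10.03 ± 0.275 to 1.29 ± 0.103 RPKM. The other falls among the deepest 15, beside CLDN2, CA9 and TNFRSF19, were MAB21L4 (−2.66), GALNT5 (−2.44), ZNF618 (−2.43), MKX (−2.41), EPN3 (−2.40), CAB39L (−2.39), TGIF2 (−2.32), RIN3 (−2.30) and DBNDD2 (−2.30). In RPKM the largest falls, beside NCL and HSP90AB1, were of TUBB, a beta-tubulin (583 ± 2.38 to 384 ± 5.83), LDHB (783 ± 8.12 to 541 ± 3.78), RPL30 (891 ± 21.9 to 659 ± 6.47) and RACK1 (1168 ± 16.9 to 983 ± 11.2).

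Some genes crossed from near silence to clear expression or back, and these were chosen after their values were seen. Under 1 RPKM in each DMSO library and at least 5 RPKM in each JQ1 library were 5 genes: H2BC21, KRT15, CAPN5 (0.781 ± 0.102 to 5.88 ± 0.145 RPKM), NPTXR (0.828 ± 0.0601 to 5.55 ± 0.0364) and a gene without a symbol. In the other direction were EPN3, MKX and TNFRSF19. By class, 430 of 10814 protein-coding genes rose and 461 fell at least 2-fold, and among 446 long noncoding RNAs 18 rose and 27 fell.

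**Figure D4:**
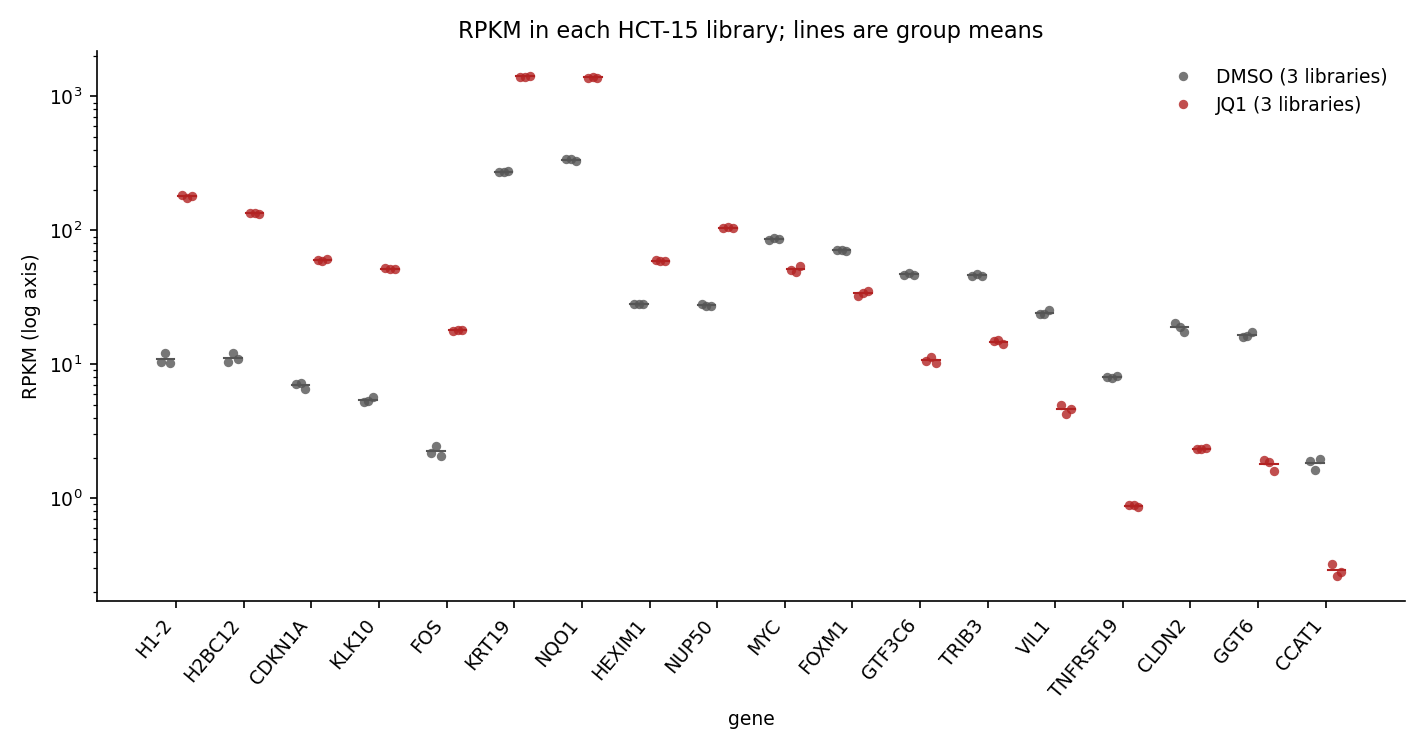
RPKM (log axis) of 18 named genes (x axis) in each of the 6 HCT-15 libraries, grey for DMSO and red for JQ1, with lines at the group means. In each gene the 3 red points lie to 1 side of the 3 grey points, from KRT19 (274 to 1410.0 RPKM) at the top to CCAT1 (1.83 to 0.289 RPKM) at the bottom.

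Most large changes in HCT-15 had the same sign in the other lines. Across the tested genes the log2 changes of HCT-15 correlated with those of HCT116 (r = 0.70), HT-29 (0.698), SW480 (0.682), COLO320 (0.591) and COLO205 (0.571), as a description over genes that are not independent. Of the genes changed at least 2-fold in HCT-15, 91% had the same sign in HCT116 and in SW480, 90.8% in HT-29, 85% in COLO205 and 82.9% in COLO320. All 5 other lines shared the sign for 310 of the 514 higher and 350 of the 515 lower genes. The same shares over all tested genes are not given here, so how far these exceed them is not known.

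The change in HCT-15 was then set against the mean change of the other 5 lines in the same fit. It was called different in 7639 genes (62.1%), higher in 4146 (33.7%) and lower in 3493 (28.4%). In 3410 (27.7%) it was also outside the range of the other 5. The error in this test was the scatter among libraries within groups, and the spread among the other 5 lines did not enter it. A call thus concerns the mean of these 5 lines, not colon cancer lines in general. The readouts of BET inhibition were not uniform in this comparison. HEXIM1 rose less than in each other line (difference −0.87, adjusted p = 3.03e-20; other lines 1.35 to 2.67), whereas BRD2 rose more than in each (difference 0.37; 0.40 to 0.72). For MYC the difference was 0.09 (adjusted p = 0.00297), with its change inside a range of −1.35 to −0.14, and it was 0.01 under quantile scaling (adjusted p = 0.884) and −0.01 on scaling to total reads (adjusted p = 0.718). CDKN1A rose more than in each other line, by 2.08 ± 0.0541 above their mean (0.41 to 2.21).

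KLK10 had the highest difference among genes expressed in at least 3 other lines, 3.38 ± 0.0612 (other lines −0.91 to 0.32). FOS followed at 2.56 (−0.76 to 0.88) and KRT15 at 2.43 (−1.52 to 1.25). KRT15 was tested through the HCT-15 JQ1 libraries, so the filter set the direction of its change in HCT-15. CCN2, a matricellular gene and classical YAP target, stood at 4.61, 3.62 and 3.89 RPKM with DMSO and 29.2, 29.1 and 29.4 with JQ1, and differed by 1.99 (−0.32 to 1.52). SNHG9, a small nucleolar RNA host gene, and NDUFAF3, an assembly factor of respiratory complex I, differed by 2.13 and 2.06. NDUFAF3 stood at 43.6, 44.5 and 45.4 RPKM with DMSO and 210.5, 205 and 213 with JQ1, while the other lines changed by −0.47 to 0.43. IER3 and H2BC11, at 2.05 and 2.00, were also among the 10 highest with a symbol; 4 genes without a symbol lay in the same range, at 2.12 to 2.43.

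TNFRSF19 had the lowest difference, −2.48 ± 0.0553 (other lines −1.20 to 0.38), followed by VIL1 at −2.06 (−1.09 to 0.27). The serine protease PRSS23 fell from 25.9 ± 0.649 to 6.8 ± 0.193 RPKM and differed by −1.71, and PSMB8 by −1.60 (−0.84 to 0.06). HNF4G, a nuclear receptor of the intestine, fell from 3.61 ± 0.159 to 0.338 ± 0.0506 RPKM and differed by −1.54. MMP24, MAB21L4, EPN3 and DBP, a clock-controlled factor, differed by −1.65, −1.60, −1.58 and −1.50. TNFRSF19, HNF4G and EPN3 were tested through the HCT-15 DMSO libraries, so the filter set the direction of their changes in HCT-15.

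A few genes went against all 5 other lines, and they were chosen after their values were seen. NUP50, a nucleoporin of the nuclear basket, stood at 28.3, 27.2 and 27.1 RPKM with DMSO and 103, 107 and 104 with JQ1, a log2 change of 1.91 ± 0.0279. In the other 5 lines it fell, with changes of −0.59 to −0.17, each called (difference 2.33, adjusted p = 9.13e-30). LIPG, endothelial lipase, rose from 3.999 ± 0.318 to 12.5 ± 0.376 RPKM and fell in the other 5 (−1.09 to −0.17); it reached 1 RPKM in just 2 of those lines. SETDB2, a SET domain protein, stood at 11.6, 11.6 and 11.5 RPKM with DMSO and 4.42, 4.47 and 4.46 with JQ1 (−1.28), and rose in the other 5 (0.10 to 0.56). These 3 were the genes changed at least 2-fold in HCT-15 that were called the opposite way in all 5.

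**Figure D5:**
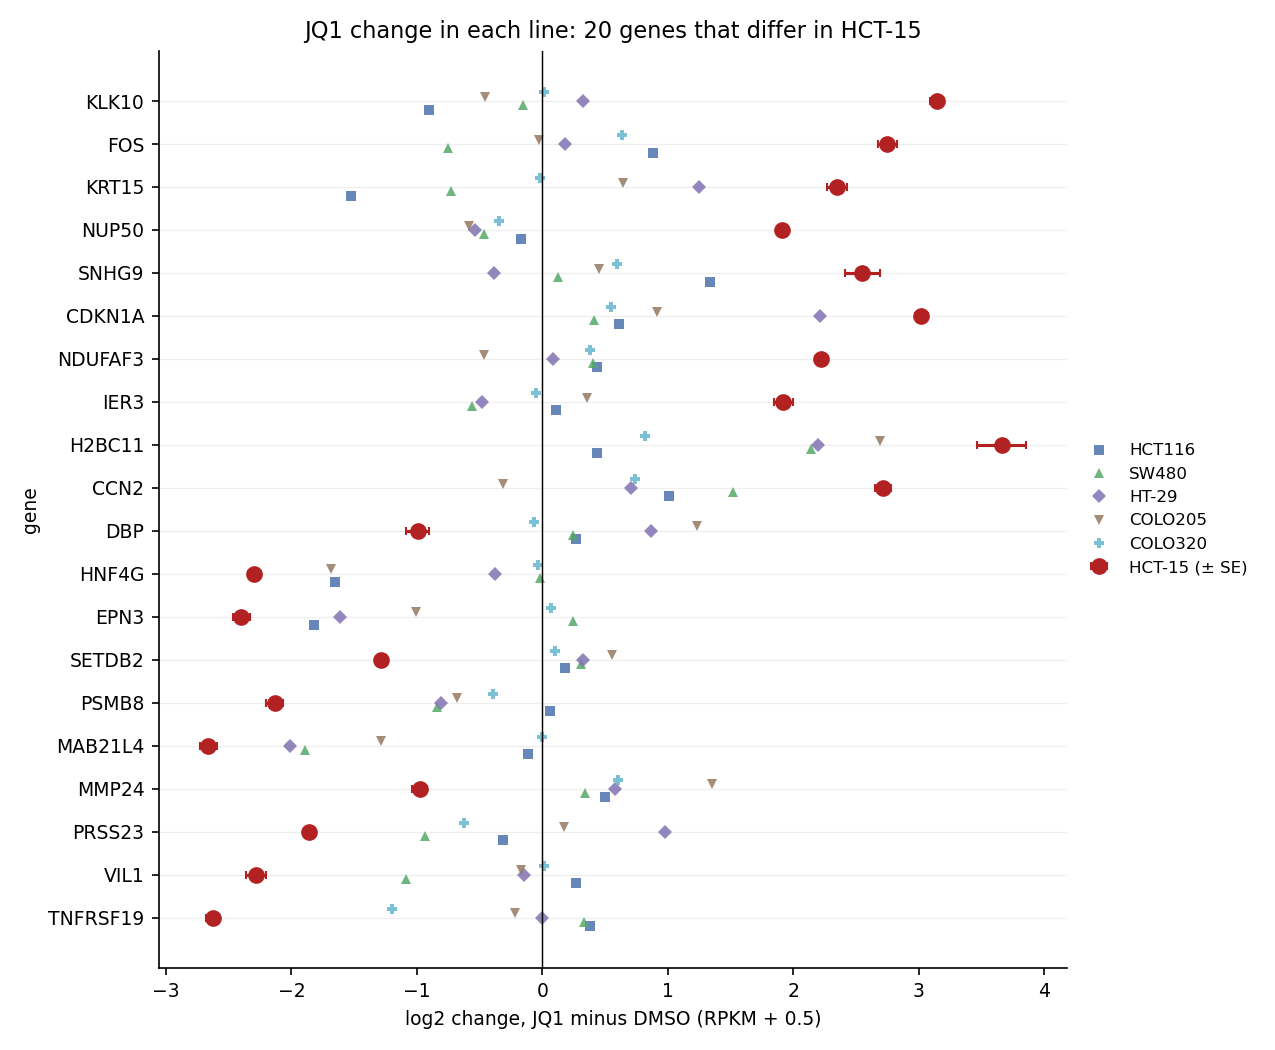
Log2 change with JQ1 (x axis) of 20 genes (rows), the 10 highest and 10 lowest differences between HCT-15 and the mean of the other 5 lines among genes with a symbol and at least 1 RPKM in 3 or more of those lines. Red points are HCT-15 with SE, other symbols are the 5 other lines, and by the rule each red point lies outside their range. NUP50 is positive in HCT-15 and negative in the other 5 lines, and SETDB2 is the reverse.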

How the data were processed

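RNA sequencing of total RNA was analysed in the 6 HCT-15 libraries, with the other 30 libraries of the series in the same fit. The authors deposited 1 table of RPKM for each gene and library. RNA was taken on columns with DNase and libraries were made with a TruSeq kit, per the labels' protocols. The tools named in the submitters' processing notes are GSNAP, DESeq and limma, without versions; the build named there, NCBIM37, is the name of a mouse assembly, so no coordinates are taken from it. Strand is not stated, so overlapping antisense genes cannot be told apart. Symbols were matched on Entrez numbers through RefSeq (GRCh38.p14), for 24519 of 26468 genes; of the 12302 tested genes 456 had none and 149 repeated another gene's values.

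Reads were recovered from the steps between RPKM values and came out whole within 1e-06 read for 23499 genes, 100% of those above 0 in any library. One read of a 1 kb gene was worth 0.03 to 0.0429 RPKM in HCT-15, and a value of 0 is compatible with as many as 3 reads (95% confidence, counting error alone).

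Genes with RPKM of at least 1 in 3 or more of the 6 HCT-15 libraries were tested on log2(RPKM + 0.5) with limma 3.58.1 (R 4.3.3): 12 group means over 36 libraries, moderated variances with a mean-variance trend, 24 residual and 3.51 prior degrees of freedom, two-sided, Benjamini-Hochberg over all tested genes, called at an adjusted p under 0.05. The fit was also run on simulated reads in which few genes changed and no shift in scaling was set. That check does not cover data like these, where most genes were called. Contrasts were JQ1 minus DMSO in HCT-15 and that change minus the mean change of the other 5 lines. Means carry the SD (n = 3), changes the SE. Tables and figures used Python 3.11.15, numpy 2.4.6, pandas 2.3.3 and matplotlib 3.10.9.

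The groups, the 43 gene lists and the tests were chosen with earlier results of these data known, so no list is independent evidence. Named were 9 fixed genes, the 15 largest rises and falls with a symbol and separate groups, the 6 largest rises and falls in RPKM with a symbol, in each list up to 5 called members by size with extremes and exceptions, and the 10 highest and lowest differences from the other lines among genes with a symbol at 1 RPKM in 3 or more of them. Alternatives were other pseudocounts, filters and scalings, HCT-15 alone, a replicate block, limma-voom on the recovered reads, and leaving out each library. RefSeq promoter windows were searched for 5 motifs on both strands; a window was found for 9338 tested genes. Some list members are not reported here.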

Additional observations from a re-analysis of the deposited data

Results flagged for a closer look

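The results that stood out were genes whose JQ1 change in HCT-15 differed from the mean change of the other 5 lines in a test of the difference itself (limma, adjusted over the 12302 tested genes, of which 62.1% were called). Values are differences of log2 changes, HCT-15 minus the mean of the others. The test counts scatter among libraries within groups, not the spread among the other lines.

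Further up in HCT-15 were KLK10 (3.38), FOS (2.56), KRT15 (2.43), NUP50 (2.33), SNHG9 (2.13), CDKN1A (2.08), NDUFAF3 (2.06), IER3 (2.05), H2BC11 (2.00) and CCN2 (1.99). FOSL1 differed by 1.54, since it fell in each of the other lines. SERPINI1 differed by 0.81 and BRD2 by 0.37. The SERPINI1 change of 2.37 lay inside the range of the other lines (1.18 to 2.48). With 13 reads over the DMSO libraries, its size depends on the 0.5 added to RPKM. CCAT1 (0.52) and MYC (0.0922) fell in HCT-15, and fell less there than in the mean of the others; for MYC this did not hold under quantile scaling or on scaling to total reads.

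Further down in HCT-15 were TNFRSF19 (−2.48), VIL1 (−2.06), PRSS23 (−1.71), MMP24 (−1.65), MAB21L4 (−1.60), PSMB8 (−1.60), SETDB2 (−1.58), EPN3 (−1.58), HNF4G (−1.54) and DBP (−1.50). HEXIM1 (−0.87) and ABCB1 (−0.40) rose in HCT-15, and rose less there than in the mean of the others. HEXIM1 rose less than in each other line. The ABCB1 change of 0.30 lay inside the range of the others (0.09 to 1.16), and ABCB1 reached 1 RPKM in just 3 of those lines.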

How the results depend on the processing

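Of the named changes in HCT-15, most kept their direction and side of the threshold under each alternative. The counts of higher and lower genes stayed within 1.5 times of 5009 and 4894 under the alternatives run. Without 1 HCT-15 library at a time, 4855 to 4918 genes rose and 4750 to 4793 fell, 506 to 514 and 509 to 528 of them at least 2-fold, and 3903 to 3980 differed upward and 3258 to 3307 downward from the other lines. A filter of RPKM at least 5 left 306 genes lower by at least 2-fold, from fewer genes tested. With total reads as divisor 2744 genes differed upward and 5334 downward, and the share of called genes that were higher went from 50.6% to 39.3%; quantile scaling gave 43.4% upward among the differences, where the fit reported gave 54.3% and total reads 34%.

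The named changes that reversed were small in the fit reported. A larger one, that of GAPDH, went from 0.63 to 0.02 under quantile scaling and was no longer called. Under quantile scaling RPL8 changed by −0.437, RPLP0 by −0.0678, HSPA8 by −0.0828 and LDHA by −0.1524. With total reads as divisor HSF1 changed by −0.0091, BRCA2 by −0.0158, HSPA4 by −0.0305, LDHA by −0.0481, BDP1 by −0.0512 and SNAI1 by −0.0439, and the difference of MYC from the other lines was −0.0112; without 1 library at a time SNAI1 changed by −0.0418 (DMSO replicate 2) to 0.1048. The cause was not tested. Same-numbered libraries did not deviate together (correlations 0.005 to 0.054), so the numbers were not taken as pairs. With a replicate block 4970 genes rose and 4860 fell, 513 and 516 at least 2-fold, and 4066 and 3411 differed from the other lines; BDP1 did not pass (adjusted p = 0.0829). Genes near 1 RPKM are limited by depth: NPPB rests on 64 reads over the DMSO libraries.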

Other observations

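A further pair of genes was chosen after their values were seen. KLK7, a kallikrein of the same gene cluster as KLK10, stood at 4.68, 4.54 and 4.48 RPKM with DMSO and 14.04, 13.1 and 14.7 RPKM with JQ1. NPPB, among the highest rises in HCT-15, reached 1 RPKM in 0 of the other 5 lines, so its comparison with them rests on values near 0.

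By class of transcript, 15 of 174 tested microRNA genes rose and 9 fell at least 2-fold, and 4 of 166 small nucleolar RNA genes rose and 2 fell. Such short genes lie within longer transcripts, and reads of the host and of the small RNA cannot be told apart here. Of 171 transcribed pseudogenes, 8 rose and 2 fell at least 2-fold.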
